A study of Mus musculus with 3 samples.

Results

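Platelets and the megakaryocytes that make them carry receptors that damp activation as well as receptors that start it. The damping receptors bear an immunoreceptor tyrosine-based inhibitory motif (ITIM) in the cytoplasmic tail, and once Src-family kinases phosphorylate it, phosphatases with SH2 domains bind there and remove phosphate from the activating pathway. FLI1, a transcription factor of the ETS family, and RUNX1, which binds DNA with its partner CBF beta, are needed for megakaryocytes to mature normally. Reads from chromatin immunoprecipitation with antibodies against FLI1 and RUNX1 were examined here over 6 genes of this system, chosen by name among 22367 protein-coding genes. The 4 receptors, grouped here by the ITIM and not by a damping effect of each, were Pecam1 (CD31, which binds itself on neighbouring cells), Treml1 (TLT-1, stored in platelet alpha-granules), Ceacam1 (an adhesion molecule of the carcinoembryonic antigen family) and Lair1 (a receptor for collagen). The 2 phosphatases were Ptpn6 (SHP-1) and Ptpn11 (SHP-2).

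The cells were mature megakaryocytes grown for 5 days in thrombopoietin from the livers of wild-type CD1 mouse embryos. The labels give embryonic day 15, and the methods of the study place collection 1 day earlier. One library was sequenced for each antibody and one for input, chromatin that was not precipitated, and each ChIP library pooled at least 3 precipitates, so there were no replicates, no test was possible and no p-value is given. Intervals are exact 95% intervals of the ratio and cover counting error only, with reads taken as independent. The FLI1 library held 62946422 usable reads, the RUNX1 library 3973856 and the input 21745220, so that a 400-bp bin was expected to hold 13.5 FLI1 reads, 4.65 input reads and only 0.85 RUNX1 reads. Other blood lineages were depleted with antibodies before the megakaryocytes were sedimented. At the gene starts the FLI1 ratio to input was 1.5-fold or more for 10 of 12 megakaryocyte marker genes (median ratio 2.45), for 2 of 6 erythroid genes (median 1.14) and for 3 of 7 granulocyte and monocyte genes (median 1.01). Over all genes 40.7% passed and the median was 1.28, so the shares of the latter lists were near that of all genes.

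Within 2 kb of the annotated gene start, FLI1 reads exceeded input by 1.5-fold or more, after scaling to depth, at 4 of the 6 genes: Treml1, Ptpn11, Pecam1 and Lair1. Among all genes with at least 10 input reads there, 40.7% passed this limit, and with 6 genes nothing particular to them can be read from this count. The median ratio of the 6 genes was 1.94 and that of all genes 1.28. A bin rich in FLI1, with at least 3 times the reads expected from the genome-wide rate or the local input, lay within 2 kb of the start of 3 of the 6, Treml1, Ptpn11 and Pecam1, against 36.4% of all genes. Receptors and phosphatases both included genes that passed and genes that did not: 3 of the 4 receptors passed, all but Ceacam1, and of the phosphatases Ptpn11 passed and Ptpn6 did not.

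Treml1 had the highest FLI1 ratio of the 6 at its start. The window held 453 FLI1, 53 input and 15 RUNX1 reads, a FLI1 ratio of 2.95 (interval 2.22 to 4.00) that was higher than at 90.2% of genes. Ptpn11 followed with 224 FLI1, 29 input and 6 RUNX1 reads and a FLI1 ratio of 2.67 (1.81 to 4.08). The intervals of these genes overlapped almost completely, so their order was not resolved. Pecam1 had 286 FLI1, 48 input and 16 RUNX1 reads at the outermost annotated start, and a FLI1 ratio of 2.06 (1.51 to 2.86). Lair1 had 127 FLI1, 24 input and 9 RUNX1 reads and a FLI1 ratio of 1.83 (1.18 to 2.96), without a FLI1-rich bin. Ptpn6 had 187 FLI1, 47 input and 9 RUNX1 reads, a FLI1 ratio of 1.37 (0.994 to 1.94). Ceacam1 had 65 FLI1, 21 input and 2 RUNX1 reads and a FLI1 ratio of 1.07 (0.645 to 1.84). Only for Treml1 did the FLI1 interval lie wholly above that of Ceacam1; neighbours in the order did not differ beyond counting error.

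**Figure D1:**
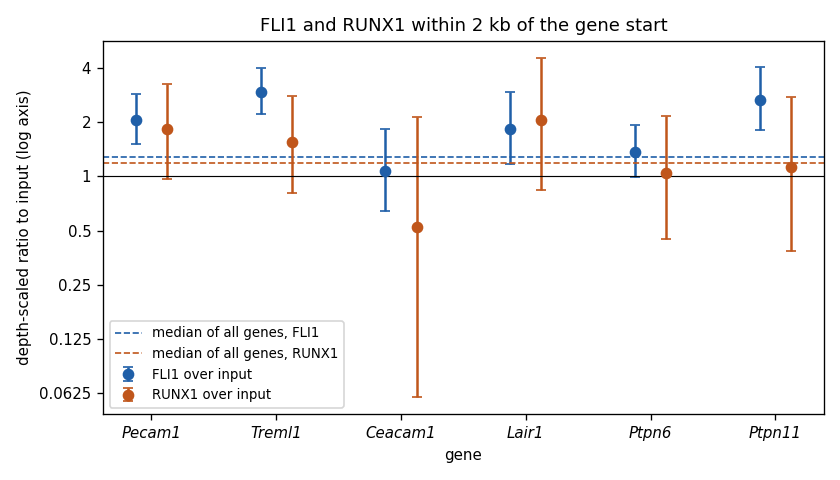
Depth-scaled ratio of FLI1 (blue) and RUNX1 (orange) reads to input within 2 kb of the start of each gene, on a log axis, with exact 95% intervals for counting error and the medians of all genes as dashed lines. FLI1 ratios run from 1.07 at Ceacam1 to 2.95 at Treml1, and the wider RUNX1 intervals all include 1.

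**Figure D2:**
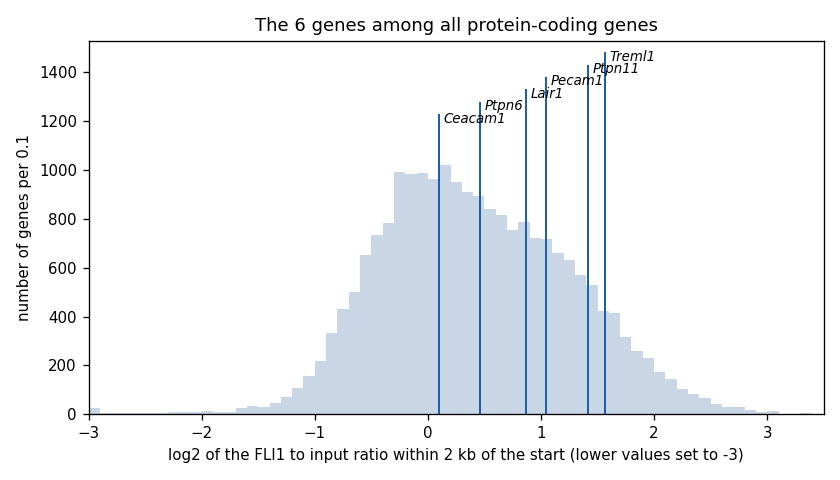
Number of protein-coding genes by log2 ratio of FLI1 to input at the start, with the 6 genes marked by vertical lines whose height carries no value. Ceacam1 stands above 38.1% of genes and Ptpn6 above 54.3%, near the middle, and Treml1 above 90.2%.

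RUNX1 could be measured only coarsely at the same starts, since the deposited RUNX1 file had 15.8 times fewer reads than that of FLI1. The study's own summary lists more tags for both antibodies than the deposited files hold. The FLI1 file holds most of the tags listed, but the RUNX1 file holds only a small part of them. Every value here rests on the deposited reads. Pecam1, Treml1 and Lair1 passed 1.5-fold over input, 3 of 6 genes, against 33.8% of all genes. For Pecam1 this holds for the outermost start. At starts annotated farther inside the gene its RUNX1 ratio was 0.912 (0.373 to 1.95), with 8 RUNX1 reads. The values that follow are those of the outermost start of each gene. The RUNX1 ratio was 2.05 (0.839 to 4.57) at Lair1, 1.82 (0.967 to 3.27) at Pecam1 and 1.55 (0.811 to 2.79) at Treml1. It was 1.13 (0.384 to 2.78) at Ptpn11, 1.05 (0.452 to 2.16) at Ptpn6 and 0.521 (0.0592 to 2.13) at Ceacam1. Every one of these intervals included 1. Reads of opposite strands also came partly in pairs, in RUNX1 as in the other libraries. Per 100 plus-strand reads of RUNX1, 41.6 minus-strand ends lay 100 to 250 bp downstream and 20.3 lay at 600 to 750 bp. These were 97.2 and 77.5 in the input and 345.6 and 231.8 in FLI1, both deeper. The excess of near over far ends was 21.3 in RUNX1, 19.7 in the input and 113.8 in FLI1. These excesses are not scaled to depth and cannot be compared between libraries, which held 1986461, 10867668 and 31467987 plus-strand reads. Relative to the far ends, the near ends were most in excess in RUNX1 and least in the input. Reads that are both ends of a fragment would not be independent, and the intervals for RUNX1 and for FLI1 would then be too narrow. Whether the pairs are such ends was not tested in any library. With reads of the plus strand only, in RUNX1 and in input, the RUNX1 ratio passed 1.5-fold at Treml1 (2.49, 1.05 to 5.47), Lair1 (2.19, 0.696 to 5.97) and Ptpn11 (1.71, 0.490 to 4.88) and no longer at Pecam1 (1.47, 0.540 to 3.48), 3 of 6 against 35.3% of all genes. Ptpn6 moved to the other side of 1 (0.782, 0.199 to 2.23), Ceacam1 stayed below it (0.497, 0.0116 to 3.42), and of the 6 intervals that of Treml1 then lay above 1. At Treml1 10 of 15 RUNX1 reads and 22 of 53 input reads were on the plus strand, and at Ptpn11 5 of 6 and 16 of 29. The Treml1 interval above 1 and the pass of Ptpn11 thus depend on the strand kept. The minus strand was not counted alone. A bin rich in RUNX1, with at least 7 reads and 5 times the expectation, lay at the start of 1 gene, Treml1, against 2.86% of all genes.

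With starts within 500 bp joined, the annotation gives more than one start for 3 of the genes, and the position of FLI1 reads differed among them. In Pecam1, 5 annotated starts lie together 35234 bp inside the gene record, and there 404 FLI1, 48 input and 8 RUNX1 reads were counted. The FLI1 ratio at this inner start was 2.91 (2.15 to 4.01) and the RUNX1 ratio 0.912 (0.373 to 1.95). The outermost start of Pecam1 is a single start that lies 575 bp from the start of Gm885, a gene on the opposite strand, and the windows of both overlap almost entirely. The inner start of Lair1 had 96 FLI1, 47 input and 10 RUNX1 reads, a FLI1 ratio of 0.706 (0.493 to 1.02) against 1.83 at its outer start, and the intervals of these ratios did not overlap. In Ptpn6 the 3 inner starts had FLI1 ratios of 1.28 (0.958 to 1.74), 0.498 (0.364 to 0.686) and 1.46 (1.05 to 2.05) in the order of transcription. The first and the last of these each have a FLI1-rich bin within 2 kb, although their ratios over the whole window were below 1.5.

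Over each territory, the gene body with 20 kb on either side in bins of 400 bp, 5 of the 6 genes had at least 1 FLI1-rich bin, against 63.5% of all genes. The 6 territories held 1241 bins, of which 32 were FLI1-rich, 2.58% against 1.07% of all territory bins. Ptpn11 had 10 such bins of 253, Pecam1 9 of 342, Ptpn6 8 of 146, Treml1 4 of 119, Lair1 1 of 241 and Ceacam1 0 of 140. The share was highest in Ptpn6 at 5.48%, and 36.7% of all FLI1 reads of its territory fell in these 8 bins. In Treml1 the share of reads in rich bins was 22.6%, in Ptpn11 21.7%, in Pecam1 17.1% and in Lair1 3.99%. The FLI1 ratio over the whole territory was 1.39 (1.28 to 1.51) in Ptpn6, 1.17 (1.10 to 1.24) in Pecam1, 1.15 (1.08 to 1.23) in Ptpn11, 1.13 (1.03 to 1.24) in Treml1 and 1.06 (0.970 to 1.16) in Lair1.

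Ceacam1 was the gene without a FLI1-rich bin in its territory. Its territory ratio was 0.695 (0.615 to 0.787), with 785 FLI1 and 390 input reads, and its highest bin had 22 FLI1 reads, 1.63 times the expectation. Input was missing more often here as well: 16.4% of its bins had no input read, and 22.0% of those of Lair1, against 2.52% to 4.39% in the other 4 and 10.9% over all genes. Ceacam1 and Lair1 have close relatives in the genome, and the reads deposited are those that map to one place. The ChIP reads were 50 bp long and the input reads 34 bp, so the places where each maps uniquely can differ. The part of these empty bins in the FLI1 values of Ceacam1 was not tested, nor was that of read length in any ratio to input.

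**Figure D3:**
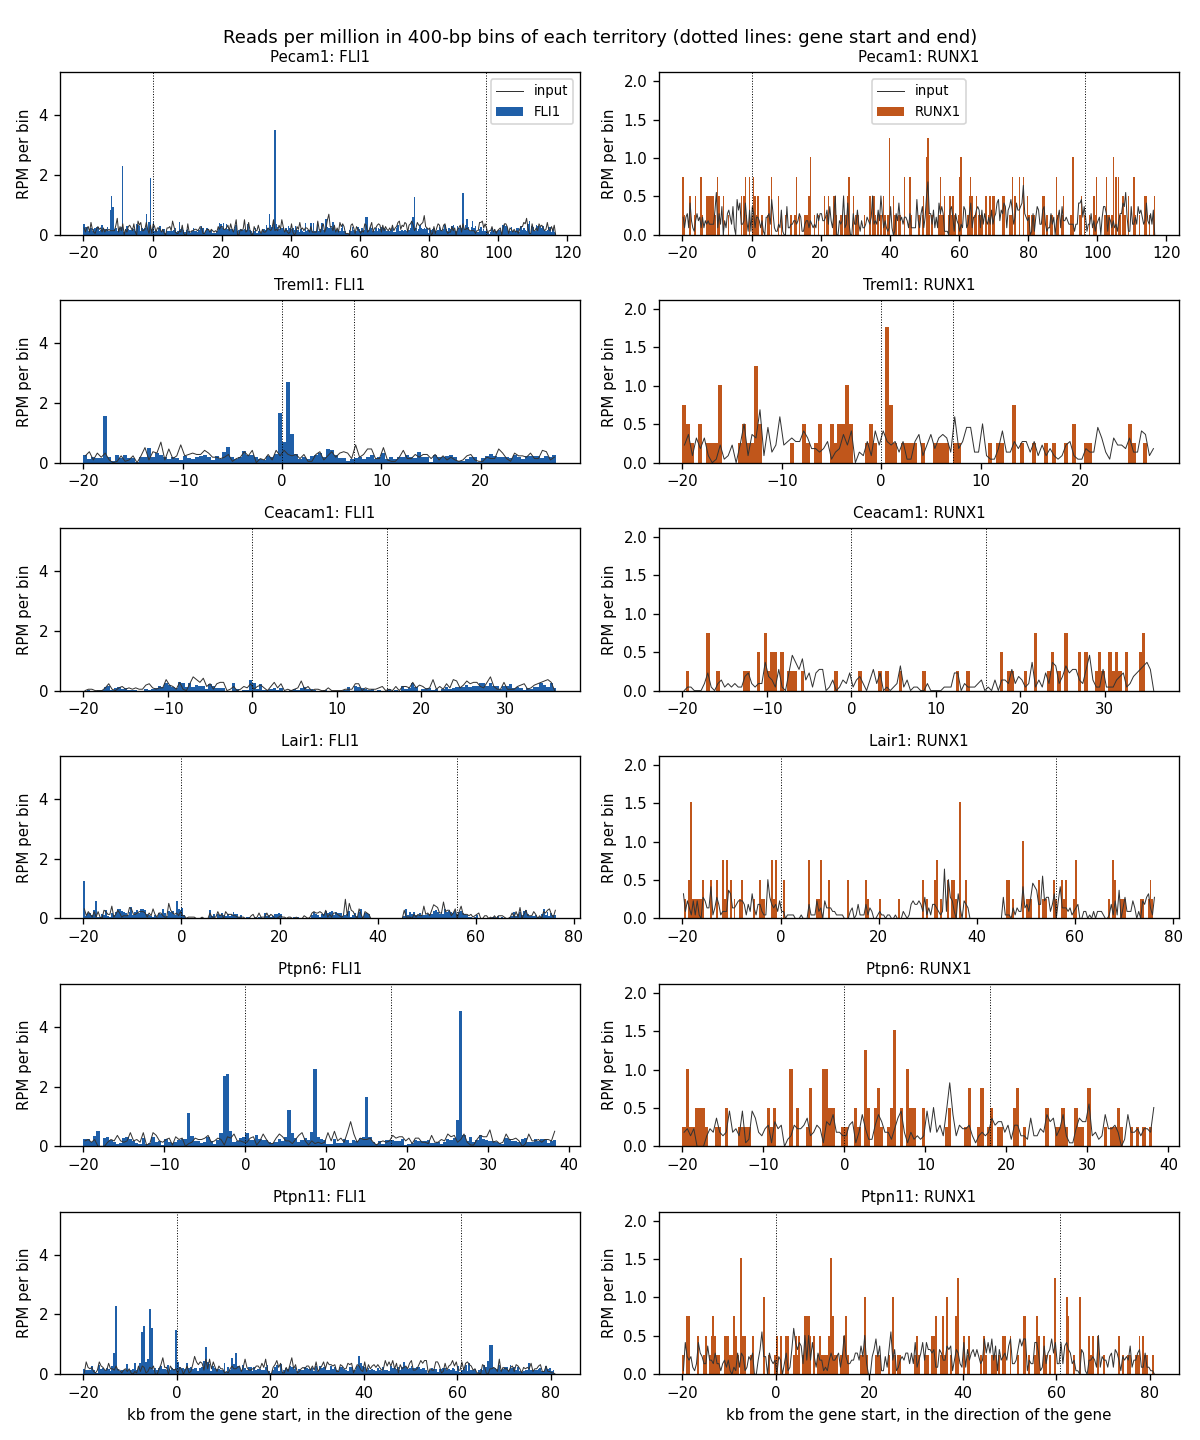
FLI1 (left, blue) and RUNX1 (right, orange) RPM (reads scaled to library depth) in 400-bp bins over the territory of each gene, with input as a thin line, against distance from the gene start in kb; dotted lines mark start and end of the gene, and the vertical scale is shared within each column. FLI1 forms a few narrow spikes in 5 territories, the highest with 285 reads in a bin of the Ptpn6 territory, and none in Ceacam1; RUNX1 bars are steps of single reads, at most 7 in a bin.

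RUNX1 over whole territories did not differ from input beyond counting error. The RUNX1 ratio ranged from 0.862 (0.684 to 1.08) in Treml1 to 1.14 (0.934 to 1.37) in Lair1, and every interval included 1. One bin of 1241 was RUNX1-rich, 0.0806% against 0.0639% of all territory bins, and 1 gene of the 6 had such a bin, against 10.5% of all genes. Where the bins were instead sorted by FLI1, RUNX1 reads were more frequent in FLI1-rich bins: 1.72 per bin in the 32 rich bins and 0.744 in the other 1209, a ratio of 2.31 (1.73 to 3.04). Input differed by 1.12 (0.943 to 1.32) between the same bins. The ratio for RUNX1 was 3.32 over all genes, so the members showed no more of this than genes at large. By gene it was 3.51 (1.62 to 6.78) in Treml1, 2.12 (1.25 to 3.39) in Ptpn11, 2.01 (1.07 to 3.51) in Ptpn6 and 1.59 (0.810 to 2.81) in Pecam1, and the single rich bin of Lair1 had 0 RUNX1 reads. Without Treml1 the ratio was 2.15 (1.56 to 2.91), and with RUNX1 reads of the plus strand only, which hold 1 end of a fragment at most, it was 2.65 (1.79 to 3.80). The plus strand held 32 of the 55 RUNX1 reads in rich bins and 456 of the 899 in the others. The ratio from the minus strand was not computed.

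Neighbouring FLI1-rich bins were joined into 23 regions, each described by its summit and the reads within 200 bp of it. Their FLI1 counts were 3.19 to 18.9 times the expectation, with a median of 7.2, against 5.12 for the 22481 such regions of all genes. Reads of the plus strand lay to the left of those of the minus strand in all 23, by 52 to 134 bp and a median of 102 bp between the strand medians. This order is largely set by how summits were placed, and it was not counted for the regions of all genes. Of the 23 regions, 8 lay within 2 kb of an annotated start of the gene itself (1 of them shared with Gm885), 3 only at the start of another gene, and 12 away from any start, 6 of these in introns, 1 in an exon and 5 between genes.

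**Figure D4:**
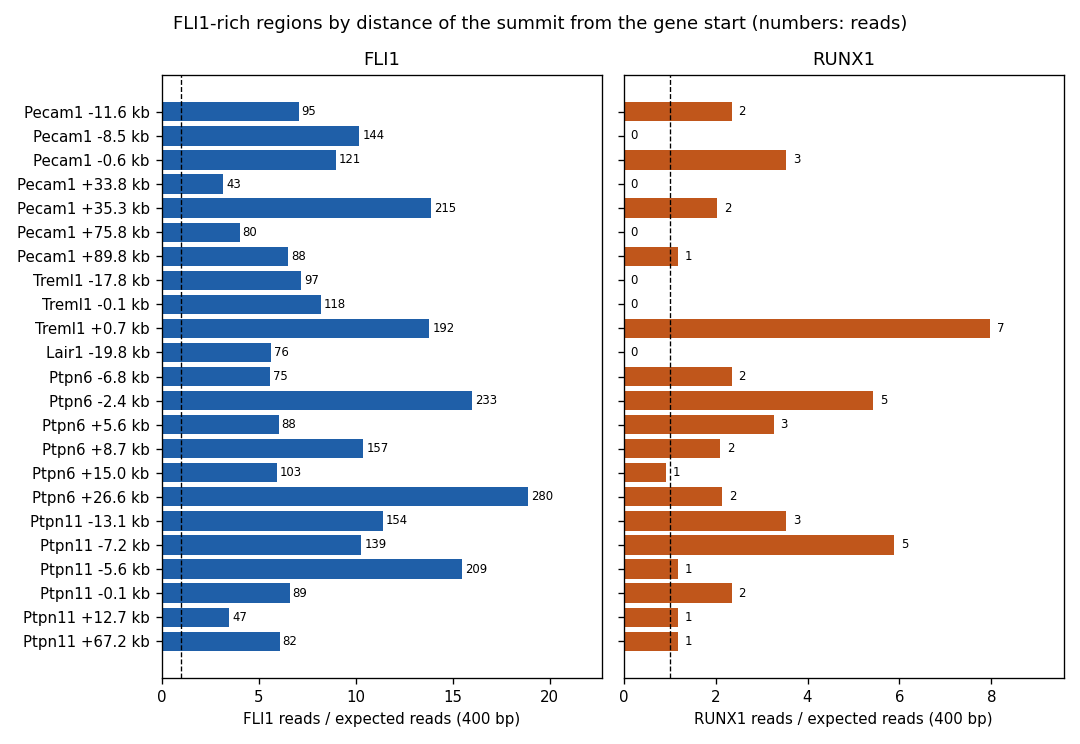
FLI1 (left) and RUNX1 (right) reads over the expected number within 200 bp of the summit of each of the 23 FLI1-rich regions, ordered by gene and labelled with the distance from the gene start in kb; numbers beside the bars are reads and the dashed line marks 1. FLI1 ranges from 3.19 to 18.9 times, and RUNX1 counts are 0 to 7 reads, with 7 at the intron of Treml1.

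**Figure D5:**
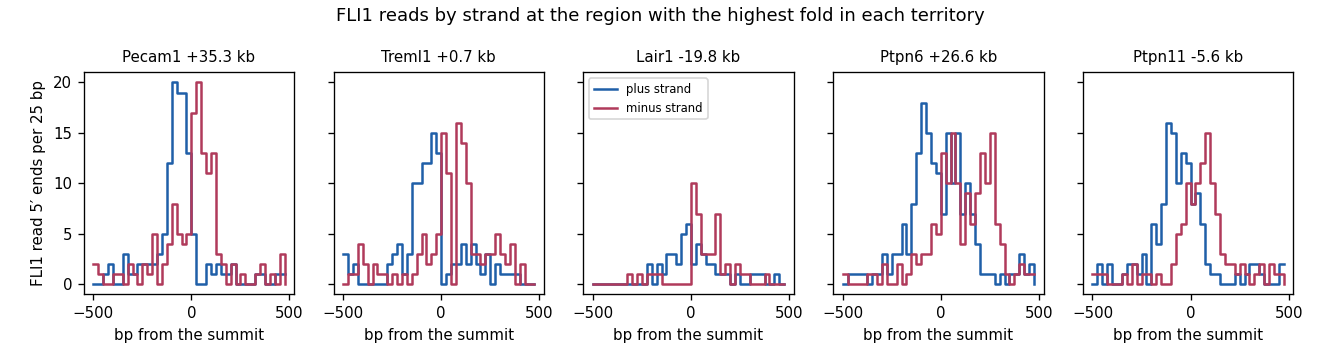
FLI1 read 5′ ends per 25 bp on the plus (blue) and minus (red) strand around the summit of the region with the highest fold in each territory, against distance from the summit in bp. The plus-strand reads lie left of the minus-strand reads at all 5, an order largely set by how summits were placed. The region of the Ptpn6 territory shows more than one maximum on each strand.

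The sequences at the summits that carry these results are given on the plus strand of mm9, with the letters of an ETS core (CCGGAA or CAGGAA) or a RUNX core (TGTGGT or TGCGGT) in capitals, on either strand. Only these forms were searched, so a window without an ETS core in this sense can still hold GGAA, the letters that both ETS forms share. Windows of 101 bases centred on the summit are printed where no untranslated region lies in them, and otherwise 30 bases around the ETS core nearest to the summit, or the RUNX core where there is none.

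Treml1, whose gene is on chromosome 17, had its FLI1 on both sides of the start. A region 73 bp upstream of the start had 118 FLI1 reads, 8.22 times the expectation, with 10 input reads and 0 RUNX1 reads. The stronger region lay 730 bp downstream, in an intron, with 192 FLI1 reads, 13.8 times the expectation, and 3 input reads. It also held 7 RUNX1 reads, 7.98 times the expectation and the most of the 23 regions. Of these 7 reads 4 were on the plus and 3 on the minus strand, and 3 pairs of them were spaced as the ends of one fragment, so that they could stand for as few as 4 fragments. Another region 17.8 kb upstream had 97 FLI1 reads and 0 RUNX1 reads. The upstream window has an ETS core 30.5 bases from its summit. The intronic one, which runs into a CT repeat, has neither of the searched cores, though it holds GGAA.
Treml1 promoter, chr17:48499118-48499218: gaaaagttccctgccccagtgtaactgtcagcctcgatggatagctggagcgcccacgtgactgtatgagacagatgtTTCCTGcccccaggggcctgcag
Treml1 intron, chr17:48499921-48500021: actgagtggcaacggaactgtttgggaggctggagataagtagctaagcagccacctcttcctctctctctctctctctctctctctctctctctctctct

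Pecam1, on the minus strand of chromosome 11, had 7 regions, and the strongest was the inner start with 215 FLI1 reads, 13.9 times the expectation, 4 input reads and 2 RUNX1 reads. A region 8.54 kb upstream of the outermost start, in an intron of Gm885, followed with 144 FLI1 reads, 10.2 times, and 0 RUNX1 reads. A region 0.6 kb upstream of the outermost start, whose summit lies in an exon of Gm885 12 bp from a start of that gene, had 121 FLI1 and 3 RUNX1 reads, and its summit sequence holds an ETS core and a RUNX core next to each other. The other 4 lay 11.6 kb upstream (95 FLI1 reads), and 33.8, 75.8 and 89.8 kb into the gene (43, 80 and 88 FLI1 reads), each with 0 to 2 RUNX1 reads. The window at 33.8 kb, the weakest of all 23 at 3.19 times, also has both cores.
Pecam1 inner start, chr11:106576634-106576663: aaatgactggccTTCCGGagggaccactga
Gm885 start, near Pecam1, chr11:106612519-106612548: aaatcctctcatTTCCTGtgTGTGGTtggg
Pecam1 upstream, chr11:106620437-106620537: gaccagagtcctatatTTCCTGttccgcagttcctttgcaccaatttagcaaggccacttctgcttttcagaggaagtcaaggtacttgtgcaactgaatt

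Lair1, on the minus strand of chromosome 7, had 1 region, in the outermost bin of its territory 19.8 kb upstream, with 76 FLI1 reads, 5.64 times the expectation, 7 input reads and 0 RUNX1 reads. Its window holds neither of the searched cores, though it holds GGAA. Near the Lair1 start, where the ratio was 1.83, no bin reached 3 times the expectation. Ceacam1, also on chromosome 7, had no region.

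Ptpn6, on the minus strand of chromosome 6, lies in a dense stretch of genes, and its strongest regions were at the starts of others. The highest of all 23, with 280 FLI1 reads and 18.9 times the expectation, lay at the neighbouring starts of Emg1 (ribosome assembly) and Phb2 (a prohibitin of the inner mitochondrial membrane), 26.6 kb downstream of the Ptpn6 start. The next, with 233 FLI1 reads, 16.0 times, and 5 RUNX1 reads, lay at the start of Grcc10, 2.38 kb upstream of Ptpn6, and had a RUNX core 4.5 bases from its summit. Within Ptpn6 itself the highest region, 8.70 kb into the gene in an intron, had 157 FLI1 reads, 10.4 times the expectation, with 2 RUNX1 reads and 1 input read, and an ETS core 1.5 bases from its summit. The region 1 bp from an inner start, 5.56 kb into the gene, had 88 FLI1 reads, 6.03 times, and 3 RUNX1 reads. The remaining ones were in an intron 15001 bp into the gene (103 FLI1 reads), 1871 bp from the last inner start, and in an exon of Atn1 (75 FLI1 reads). The 2-kb ratio of 1.37 at the Ptpn6 start thus sat beside a territory with the highest FLI1 ratio of the 6.
Ptpn6 intron, chr6:124679983-124680083: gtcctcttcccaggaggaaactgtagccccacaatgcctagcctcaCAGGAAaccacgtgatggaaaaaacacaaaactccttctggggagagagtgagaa
Ptpn6 inner start, chr6:124683144-124683173: gcagggcggagaCAGGAAggggcgcggccg
Grcc10 start, chr6:124691088-124691117: aaaggaagcgggACCGCAcgaggcggaagt

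Ptpn11, on the minus strand of chromosome 5, had a FLI1 region 119 bp upstream of its start with 89 FLI1 reads, 6.61 times the expectation, and 2 RUNX1 reads. Stronger ones lay farther upstream: 209 FLI1 reads and 1 RUNX1 read at 5.62 kb, 15.5 times the expectation, and 139 FLI1 and 5 RUNX1 reads at 7.17 kb, 10.3 times. A region 13.1 kb upstream with 154 FLI1 reads, 11.4 times, was the start of Rpl6, a ribosomal protein gene. Those 12.7 kb into the gene and 67.2 kb from its start, beyond its end, were weaker, with 47 and 82 FLI1 reads. The start and the region at 7.17 kb have an ETS core. The strongest one at 5.62 kb has neither of the searched ETS forms within 50 bases of its summit, though it holds GGAA on the minus strand.
Ptpn11 promoter, chr5:121641475-121641575: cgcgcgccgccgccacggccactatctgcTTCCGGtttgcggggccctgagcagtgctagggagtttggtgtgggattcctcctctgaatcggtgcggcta
Ptpn11 upstream 5.62 kb, chr5:121646976-121647076: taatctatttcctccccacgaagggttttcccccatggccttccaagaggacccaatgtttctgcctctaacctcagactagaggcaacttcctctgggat
Ptpn11 upstream 7.17 kb, chr5:121648526-121648626: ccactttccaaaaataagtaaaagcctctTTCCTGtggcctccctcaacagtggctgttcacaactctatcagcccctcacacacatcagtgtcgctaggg

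Over all 23 regions an ETS core lay within 50 bases of the summit in 15, or 65.2%. The same letters were found in 59.8% of the FLI1 regions of all genes, in 19.9% of windows at gene starts and in 11.1% of all territory windows. A RUNX core was found in 3 of 23, or 13.0%, against 17.8% of all FLI1 regions, 7.92% of gene starts and 8.24% of territory windows. For comparison, GATA letters (AGATAA or TGATAA), read by the GATA factors of this lineage, were found in 4 regions (17.4%, against 13.1% of all FLI1 regions), and the NF-E2 letters TGAGTCA in 0 of 23 (against 4.56%). The regions of the 6 genes thus had the cores about as often as FLI1 regions in general. Both strands were searched, matches of different factors may share their end bases, and a match describes the window without showing a bound site.

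RUNX1 reads in the 23 regions numbered 43 where 20.8 were expected, 2.07 times (interval 1.50 to 2.79 for independent reads), against 2.5 times over the FLI1 regions of all genes. The count was 0 in 6 regions and 5 or more in 3. A count of 0 allows up to 3 reads, or 3.31 times the expectation at the Treml1 promoter and 3.53 times at the Lair1 region, so it does not show that RUNX1 was absent. The 5 reads at the Grcc10 start and the 5 reads at 7.17 kb from Ptpn11 each held 1 pair, and so could stand for as few as 4 fragments each.

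Other genes of ITIM signalling were read in the same way, from a list of 28 receptors, phosphatases, kinases and adaptors, all of which were matched. At their starts FLI1 passed 1.5-fold in 19 of 28 (40.7% of all genes) and a FLI1-rich bin was present in 17 (36.4% of all genes), with a median ratio of 1.58 against 1.28 for all genes. The highest FLI1 ratios were those of Csk (4.91, 3.52 to 7.05), the kinase that restrains Src-family kinases, Gab2 (3.15, 2.27 to 4.49), an adaptor that binds SHP-2, Inpp5d (2.91, 2.20 to 3.91), the lipid phosphatase SHIP-1, and Cd300a (2.82, 1.87 to 4.41), an ITIM receptor of leukocytes. The lowest were all receptors: Pirb (0.144, 0.0397 to 0.439), Pilra (0.512, 0.306 to 0.867), the B-cell receptor Cd22 (0.600, 0.441 to 0.820) and Clec12a (0.795, 0.565 to 1.13). Pirb had 12 input and 5 FLI1 reads and lies, as Lair1 does, among close relatives. RUNX1 passed 1.5-fold in 9 of 28, near the 33.8% of all genes, and 1 gene, Csk, had a RUNX1-rich bin at its start, as did 2.86% of all genes, with 19 RUNX1 reads and a RUNX1 ratio of 2.81 (1.53 to 5.01).

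Each of the 6 genes was matched to the gene of this list with the nearest pair of log2 ratios (FLI1 and RUNX1 at the start), a likeness over only 2 values. Treml1 was nearest to Lyn, the Src-family kinase that phosphorylates ITIMs (FLI1 2.77, RUNX1 1.58). Pecam1, by its outermost start only, was nearest to Inppl1, the lipid phosphatase SHIP-2 (2.02 and 2.04). Lair1 was nearest to Lilrb4 (1.96 and 2.05), Ptpn6 to Fcgr2b, the inhibitory Fc receptor (1.55 and 1.15), Ptpn11 to Cd300a (2.82 and 1.26), and Ceacam1 to Cd72 (0.832 and 0.709), whose distance of 0.574 on the log2 scale was the largest of the 6.

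Of 7 neighbouring genes that start within these territories, 5 had a FLI1-rich bin within 2 kb of their start, against 36.4% of all genes, and Emg1 and Phb2 share theirs. The FLI1 ratio at the start was 3.19 (2.38 to 4.36) at Emg1 and 3.18 (2.37 to 4.35) at Phb2, 2.76 (2.07 to 3.75) at Grcc10, 2.35 (1.68 to 3.36) at Rpl6 and 2.09 (1.54 to 2.91) at Gm885, whose reads are nearly those of the outermost Pecam1 start. Atn1 (1.55, 1.06 to 2.33), near Ptpn6, and Trem2 (0.775, 0.570 to 1.06), the receptor gene beside Treml1, had none at their starts. Emg1, Phb2 and Grcc10 had higher FLI1 ratios than the start of Ptpn6, whose interval (0.994 to 1.94) lay below those 3.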

How the data were processed

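The data were 3 libraries of mature megakaryocytes, 1 for each ChIP antibody (FLI1, RUNX1) and 1 of input. The authors aligned reads with Bowtie to mouse genome mm9 and deposited read positions (chromosome, start, end, strand), a unit other than a signal or count: all read counts were made here. Each position occurred once in both ChIP files, while 3.24% of input reads repeated one and were reduced to one. Reads were 50 bp long in both ChIP files and 34 bp in the input. Reads on chromosome M were left out. Per the labels chromatin was sonicated, while the methods describe input chromatin digested with micrococcal nuclease. With such an input, the ratios would compare sheared with nuclease-digested chromatin, and differences in how each samples gene starts would enter them; this was not tested. Per the labels the authors also used SICER 1.1 and MACS 1.4, which were not used here. The Bowtie version is not given in the sources used here.

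Reads were placed at the centre of a 150-bp fragment, the length in the methods, and counted with Python 3.11.15 and numpy 2.4.6 on the genes of GENCODE M1, which is on mm9. Of 210 sampled FLI1 reads 206 matched this genome with at most 2 mismatches. Windows reached 2 kb from the start, and territories 20 kb beyond the gene. Expectations used the higher of the genome-wide rate over 1870 Mb and the input rate over 5 kb. Ratios were scaled to depth, with intervals from scipy 1.17.1. Scripts were tested on simulated data. Genes outside the 6 were named if they were the 4 highest or 4 lowest of the list by FLI1 or held a RUNX1-rich bin at the start. Others were named if they were nearest to a member or had a FLI1-rich start within a territory. Atn1 and Trem2 were added after their values were seen, and so were Src and Gab1, whose values are not given singly in the text. The members and lists were chosen with earlier results of these data known.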

Additional observations from a re-analysis of the deposited data

How the results depend on the processing

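No paired analysis was possible because each antibody and the input had a single library and no test was made. Of the alternatives to the 6 counts over members, 36 stayed within 1.5 times the reported value and 10 did not. This limit is loose for counts of a few genes. With a window of 1 kb, 2 genes in place of 3 passed for RUNX1 at the start, which is within the limit. That was a lower share than the 42.1% of all genes. With a 2-fold limit, 1 gene in place of 3 passed for RUNX1 at the start (16.7% of all genes). With looser limits (2-fold for FLI1, 3-fold and 5 reads for RUNX1), 5 genes had a FLI1-rich bin at the start (46.3% of all genes), and 53 FLI1-rich (2.04% of all bins) and 12 RUNX1-rich bins (0.486%) were found. With stricter limits (8-fold and 10 reads), 0 genes had a RUNX1-rich bin at the start (0.478% of all genes) and 0 bins were RUNX1-rich (0.0133% of all bins). With FLI1 thinned to the RUNX1 depth, the unchanged 3-fold limit gave 5 genes (52.9% of all genes) and 80 bins (4.02% of all bins). With the RUNX1 limits added, an alternative chosen after seeing the data, FLI1 gave 1 gene (15.1%) and 10 bins (0.301%), and RUNX1 1 and 1. Reads of the plus strand only, also added after seeing the data, left 3 genes for RUNX1 (35.3% of all genes), but Ptpn11 in place of Pecam1. The same count from the minus strand was not made. The 78 alternatives to the ratios of single genes covered repeated input positions, fragment length, scaling and, for RUNX1 at the start, the plus strand only. The window, the thinning of FLI1 and other annotated starts were not among them. At an inner start the FLI1 ratio was 0.706 for Lair1 and 2.91 for Pecam1, outside the main intervals (1.18 to 2.96 and 1.51 to 2.86). All 78 kept within the interval of the main value, a wide limit for RUNX1, and in them no ratio past 1.5-fold fell below 1. Of those not past it, that of Ptpn6 for RUNX1 crossed 1 with the plus strand only (1.05 to 0.782). Scaling moved the median of all genes by at most 0.0519 on the log2 scale. RUNX1 ratios rest on 2 to 16 reads a start, and the spread between precipitates cannot be seen.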
